A study of Homo sapiens with 8 samples.

Results

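The genes described here are 51 histone modifiers and chromatin remodeling factors, among 19970 protein-coding genes on chromosomes 1 to 22 and X. Their peaks were taken from RNA immunoprecipitation sequencing (RIP-seq) with an antibody against METTL3, in which RNA bound by the protein is recovered from a cell lysate and sequenced. A peak counted for a gene where it lay whole within the gene's span on GRCh38, from the first to the last annotated base with introns. This gave 91 of the 2616 peaks in the list for LNCaP, an androgen-sensitive prostate cancer line from a lymph node metastasis, and 60 of the 1033 peaks in the list for PC3, an androgen-independent line from a bone metastasis. The labels describe 8 samples: an immunoprecipitate (IP, anti-METTL3 antibody) and the input lysate of each line, so 4 groups of 2 replicates, and name neither a treatment nor a genetic change. An IgG control named in the protocol was not analysed here. LNCaP was grown in more serum than PC3, per the labels' protocols, so serum and cell line cannot be told apart. Each line is represented by 1 deposited peak list with no values per sample, so no value below has an error between replicates, depth is unknown, and no test between the lines was run. The fold, p and FDR of a peak are the authors' own. The fold is read as IP over input from the design, since the file headers do not name the denominator.

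METTL3 is the catalytic subunit of the nuclear complex that writes N6-methyladenosine (m6A) on RNA, usually at the short motif called DRACH. The 51 genes encode a different layer of regulation. Methyltransferases and acetyltransferases add marks to histone tails, demethylases and deacetylases remove them, bromodomain proteins bind acetylated histones, remodelers move nucleosomes with the energy of ATP, and DNMT and TET enzymes add and oxidise methyl groups on DNA. Many of these genes are recurrently altered in cancer. A RIP peak in their transcripts shows RNA recovered with METTL3, not a methylated base.

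Of the 51 genes, 36 carried at least 1 peak in either list. LNCaP peaks were present on 30 (58.8%, 95% Wilson interval 45.2 to 71.2%), whereas 5.62% of all protein-coding genes carried one. PC3 peaks were present on 19 (37.3%, interval 25.3 to 51%), against 1.83% of all protein-coding genes. In all, 13 genes were in both lists (25.5%, against 1.16% of all protein-coding genes), 17 in LNCaP alone and 6 in PC3 alone. The 15 genes with no peak were ARID2, ASH1L, BAZ2B, BRD1, BRPF1, HDAC5, HDAC7, KDM2A, KDM5B, KDM5C, NSD1, NSD3, SETDB1, TET2 and TET3. The genes were proposed with earlier results of these lists known, so these shares are descriptions and were not tested. The intervals cover counting error only.

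Gene span was set beside these shares. The 51 genes had a median span of 109264 bp, against 24190 bp over all protein-coding genes, and long genes carried peaks more often. For each of the 51, the other protein-coding genes with a span within 10% of its own were therefore taken (median 692 genes). On average over the 51, 9.09% of these like-length genes carried a LNCaP peak, with values from 2.94% for BRD2 to 18.6% for ARID1B. For PC3 the average was 3.21%, from 0.629% for BRD2 to 5.53% for BPTF. Genes of the set with a peak had a mean of 3.03 peaks in LNCaP, against 2.29 for like-length genes with a peak. In PC3 the mean was 3.16, against 3.26, so the peak number there was not above that of like-length genes. These means were not tested. How strongly each gene is expressed in either line is not known from the lists, so an RNA too scarce to give a peak cannot be told from one not recovered with METTL3.

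**Figure D1:**
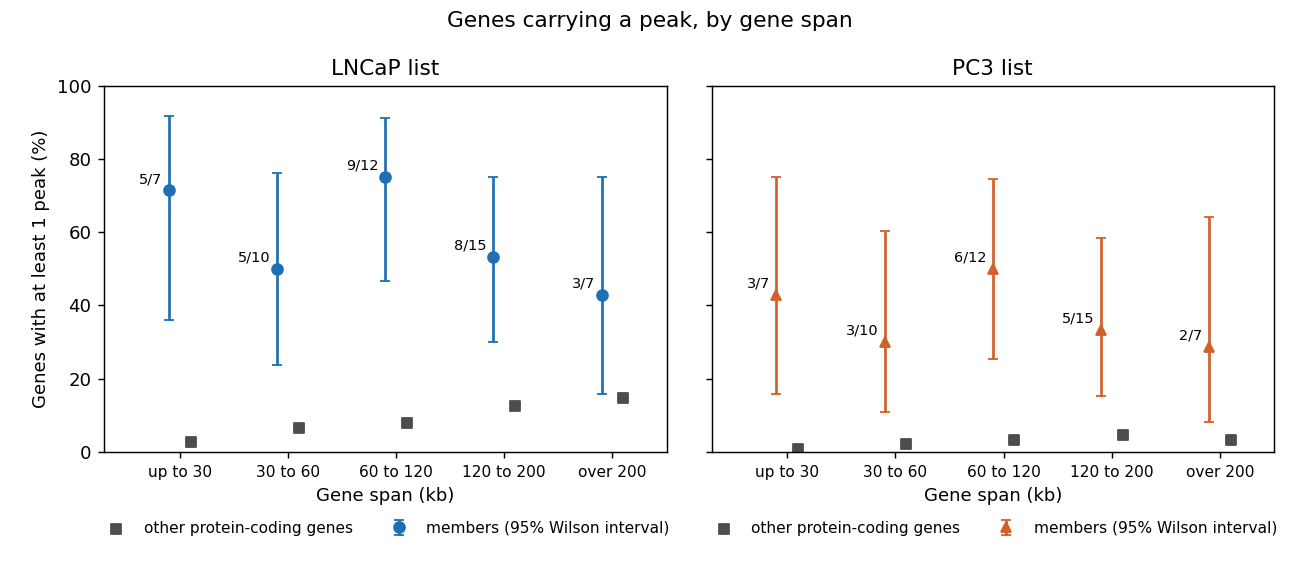
Share of genes with at least 1 peak (%) in 5 classes of gene span (kb), for the LNCaP list (left) and the PC3 list (right); coloured points are the 51 chromatin genes with 95% Wilson intervals and the count beside them, and dark squares are all other protein-coding genes. In spans up to 30 kb, 5 of 7 of the chromatin genes carried a LNCaP peak against 2.59% of other genes, and over 200 kb the counts were 3 of 7 against 14.7%.

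Among other genes the share with a LNCaP peak rose with span, from 2.59% up to 30 kb to 14.7% over 200 kb. The counts of chromatin genes were 5 of 7, 5 of 10, 9 of 12, 8 of 15 and 3 of 7 from the shortest to the longest class. In PC3 the counts were 3 of 7, 3 of 10, 6 of 12, 5 of 15 and 2 of 7. The share of other genes with a PC3 peak was 0.664%, 2.24%, 3.33%, 4.67% and 3.31% in the same order, so it was lower in the longest class than in the class before it. With 7 to 15 chromatin genes in a class, the order of their shares was not tested.

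Near the starts of genes, 3 peaks can be read at the level of bases, because they cover all or part of a window around an annotated transcription start on the same strand (RefSeq, GRCh38.p14, 250 bases before to 50 bases after the start). Each stretch inside a peak is printed 5′ to 3′ on the strand of the gene, with matches to DRACH in capitals (D is A, G or T; R is A or G; H is A, C or T). The windows are shown to place the peaks against the sequence METTL3 is known to methylate. The first is in the peak of PC3 on ASXL1 (fold 4.37) at chr20:32358815-32359114, plus strand, around an internal start of the gene.
ASXL1: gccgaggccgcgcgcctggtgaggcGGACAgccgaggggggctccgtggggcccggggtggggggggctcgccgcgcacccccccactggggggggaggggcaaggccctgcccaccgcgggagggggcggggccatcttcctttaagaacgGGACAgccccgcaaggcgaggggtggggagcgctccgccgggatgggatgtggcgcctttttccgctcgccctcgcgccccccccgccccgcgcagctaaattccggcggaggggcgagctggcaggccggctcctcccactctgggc
The next is in a LNCaP peak on BRD3 (fold 5.02) at chr9:134067977-134068276, minus strand, also around an internal start.
BRD3: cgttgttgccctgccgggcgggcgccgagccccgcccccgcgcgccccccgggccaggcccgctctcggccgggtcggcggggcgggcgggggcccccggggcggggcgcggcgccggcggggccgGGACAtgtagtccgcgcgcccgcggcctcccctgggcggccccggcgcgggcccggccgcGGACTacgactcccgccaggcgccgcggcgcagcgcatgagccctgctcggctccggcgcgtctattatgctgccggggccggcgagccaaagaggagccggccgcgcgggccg
The last is the 130 bases at chr19:10194904-10195033, minus strand, inside a PC3 peak that begins upstream of the annotated start of DNMT1.
DNMT1: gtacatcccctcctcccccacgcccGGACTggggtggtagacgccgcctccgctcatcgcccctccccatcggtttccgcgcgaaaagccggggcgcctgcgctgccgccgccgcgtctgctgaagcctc

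The ASXL1 stretch held 2 DRACH matches on the strand of the gene and 0 on the other, the BRD3 stretch 2 and 1, and the DNMT1 stretch 1 and 1. Both strands were searched and overlapping matches counted. Over 34943 start windows of 300 bases, 97.2% held at least 1 match on the strand of the gene (97.3% on the other strand), with a median of 4, and over their last 130 bases 80.3% did (82.1% on the other), with a median of 2. These 3 stretches were GC-rich, at 77.7%, 85.0% and 73.1%, against medians of 58.7% over 300 bases and 60.8% over the last 130. A match is a string of letters and not a methylated site, and since peaks span introns, it is not known which of these bases are in the mature RNA.

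The DNMT1 peak just named (chromosome 19, 10194858 to 10195033, fold 7.15) runs past the first annotated base of the gene and so is not among the 60 PC3 peaks. The same holds for a peak of 27699 bp across SMARCC2, listed with identical bounds in both lines (chromosome 12, 56162458 to 56190156), with a LNCaP fold of 4.0 and a PC3 fold of 4.21. No other peak met a gene of the set without lying whole within it. Within the set, 61 LNCaP and 38 PC3 peaks lay on the strand of their gene, where the strand was given (38 of the 51 genes). Only 2 lay on the opposite strand, both in PC3, and are described with KAT6B and SMARCA4. None of the 151 was shared with a second protein-coding gene.

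Both H3K4 methyltransferases carried peaks, each in a different line. SETD1A (chromosome 16), a catalytic subunit of a COMPASS complex, had 2 peaks in PC3, a 51 bp peak at 30966120 to 30966170 with a fold of 10.8 and a neighbour of 5256 bp with a fold of 3.61. In the authors' deposited list the short one had a p of 7.34e-24, rank 98 of 1033 by p. SETD1B, its paralog, had 2 LNCaP peaks (chromosome 12) of 151 and 51 bp with folds of 11.8 and 6.31. Their p-values in the authors' list were 0.00172 and 0.00161. The PC3 list stops at a p of 1.59e-05, so whether PC3 lacks these SETD1B peaks is not known. The paralogs are on different chromosomes, and how reads that match several places were counted is not given in the sources used here.

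Among 6 methyltransferases of the H3K36 group, 3 carried LNCaP peaks and 2 carried PC3 peaks. NSD2, which dimethylates H3K36, had 3 peaks in each line. Its LNCaP folds were 4.34, 3.89 and 5.39 and its PC3 folds 4.08, 4.29 and 3.87, and a LNCaP peak of 12153 bp and a PC3 peak of 12453 bp covered almost the same stretch (chromosome 4, 1918565 to 1930717 and 1918290 to 1930742). SETD5, a SET-domain protein, had 3 LNCaP peaks with folds of 6.42, 5.16 and 5.67. The last of them had the same bounds as its PC3 peak (chromosome 3, 9443397 to 9447142), where the fold was 3.07, the lowest of the set in PC3. SETD2, the enzyme that trimethylates H3K36, had short LNCaP peaks of 126 and 326 bp with folds of 4.63 and 4.89.

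Of the 3 H3K9 methyltransferases, 2 had LNCaP peaks and 0 had PC3 peaks, and SETDB1 had a peak in neither line. The single H3K79 methyltransferase had peaks in LNCaP and 0 in PC3. EHMT1 and EHMT2, which work together as the H3K9 dimethylating enzymes GLP and G9a, had 4 and 2 LNCaP peaks. The EHMT1 folds were 9.09, 5.44, 4.42 and 7.41 and lay between 51.2% and 81.0% of the gene's span. EHMT2 folds were 3.66 and 4.77. DOT1L, the H3K79 methyltransferase, had folds of 9.25, 5.63 and 5.03 over 3 peaks (chromosome 19, 2194540 to 2210818). The PC3 list stops at a p of 1.59e-05, and all 9 of these peaks had p-values above that bound. No peak with so large a p is listed for PC3, so whether PC3 lacks these peaks is not known.

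Among the 9 histone demethylases, 5 carried 18 peaks in LNCaP and 1 carried 1 peak in PC3. KDM6B, which removes methyl groups from H3K27, had 6 LNCaP peaks of 51 to 364 bp between 7846277 and 7849299 on chromosome 17. Their folds were 16.9, 11.8, 20.8, 18.2, 5.9 and 6.35. The fold of 20.8 was the largest of all 151 peaks of the set and ranked 63 of 2616 in the LNCaP list. KDM4B, an H3K9 demethylase, had 5 LNCaP peaks with folds of 4.55, 17.2, 11.5, 4.69 and 6.64. They were long, from 5878 to 47177 bp, and covered 64.7% of the gene's span. Peak bounds thus took in a large part of the span of KDM4B (184486 bp) and 6.06% of that of KDM6B (20580 bp). Whether RNA from introns inside such bounds was recovered cannot be read from the lists.

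Among the other demethylases, KDM5A, an H3K4 demethylase, had LNCaP folds of 8.53, 5.68, 7.57 and 6.08. The first 3 of these were neighbours 25 bp apart. KDM3B, an H3K9 demethylase, had folds of 4.72 and 11.6, and KDM4A a fold of 4.06. The PC3 peak was on KDM2B, an H3K36 demethylase found in a variant Polycomb complex, with a span of 76 bp and a fold of 6.07 (chromosome 12, 121444060 to 121444135). The p-values of all 18 LNCaP demethylase peaks also lay above 1.59e-05. The closest were those of KDM3B at 1.74e-05 and KDM6B at 2.04e-05.

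**Figure D2:**
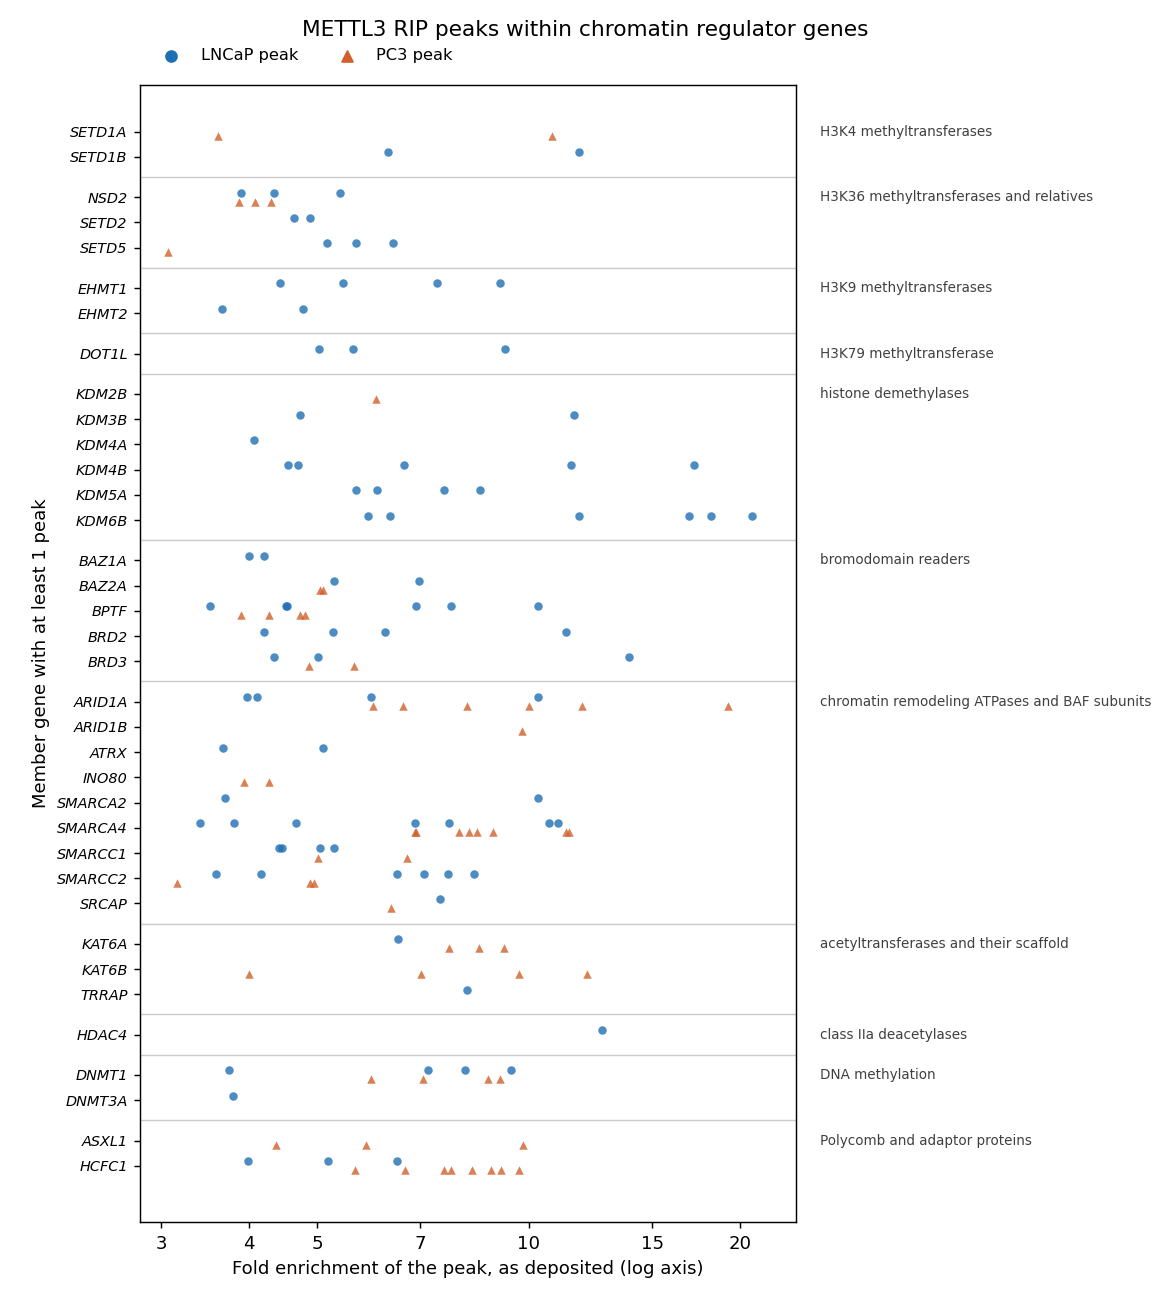
Fold enrichment of each of the 151 peaks (log axis, as deposited) on the 36 genes with a peak, grouped by role; blue circles are LNCaP peaks and orange triangles are PC3 peaks. LNCaP peaks ran from 3.4 to 20.8 and PC3 peaks from 3.07 to 19.2, and 18 LNCaP peaks and 1 PC3 peak lie on demethylases.

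Of 8 readers with bromodomains, 5 carried LNCaP peaks and 3 of these carried PC3 peaks as well. BPTF, the largest subunit of the NURF remodeler, had 6 LNCaP peaks (folds 4.53, 4.52, 6.92, 10.3, 7.76 and 3.52) and 4 PC3 peaks (folds 4.73, 4.27, 3.89 and 4.81). Of these, 4 of the 6 and 3 of the 4 lay in the first of 3 equal parts of the gene. A LNCaP and a PC3 peak began at the same base (chromosome 17, 67874905), with folds of 10.3 and 3.89. BRD3, a BET protein, had LNCaP folds of 4.34, 13.9 and 5.02 and PC3 folds of 5.65 and 4.87. BAZ2A, a subunit of the nucleolar remodeler NoRC, had 2 peaks in each line at nearly the same places, with folds of 5.29 and 6.98 in LNCaP and 5.09 and 5.04 in PC3.

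BRD2, another BET protein and the shortest gene of the set at 12912 bp, had 4 LNCaP peaks and 0 in PC3. Its folds were 11.3, 5.27, 4.2 and 6.24, and the peaks lay in the last of 3 equal parts of the gene (chromosome 6, 32977508 to 32980599). BAZ1A, a subunit of ISWI remodelers, had LNCaP folds of 4.0 and 4.2.

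The remodeling ATPases and subunits of the BAF complex held the most peaks of any role in both lists, 26 in LNCaP on 7 of 10 genes and 23 in PC3 on 7 of 10, with 5 genes in both. It was also the role with the most genes, and the 2 genes for Polycomb and adaptor proteins held 11 PC3 peaks. SMARCA4, the BRG1 ATPase that drives BAF, had 7 LNCaP peaks and 8 PC3 peaks, which covered 51.8% and 62.6% of its span of 101244 bp on chromosome 19. The LNCaP folds from start to end of the gene were 11.0, 10.7, 3.4, 7.69, 6.9, 4.67 and 3.8. The PC3 folds were 6.89, 8.22, 8.91, 11.4, 11.3, 7.96, 6.91 and 8.44. The first peak had the same bounds in both lines (10984338 to 10986195), and the longest PC3 peak, of 31071 bp up to 336 bp from the end of the gene, met 3 LNCaP peaks. The PC3 peak with a fold of 11.4 (11011166 to 11016011) was on the strand opposite to the gene and enclosed a plus-strand peak of 126 bp with a fold of 11.3.

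ARID1A, the DNA-binding BAF subunit often mutated in tumours, had 4 LNCaP peaks with folds of 10.3, 4.11, 3.97 and 5.96 and 6 PC3 peaks with folds of 6.63, 10.0, 19.2, 11.9, 8.18 and 6.0. A LNCaP peak of 1739 bp lay inside a PC3 peak of 1839 bp at 40.2% of the span (chromosome 1, 26729729 to 26731567). The fold of 19.2 was the largest of the set in PC3 and ranked 20 of 1033 in that list. No LNCaP peak met it. ARID1B, its paralog, had a PC3 peak of 2546 bp near the end of the gene with a fold of 9.78.

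The BAF scaffold subunits SMARCC1 and SMARCC2 were in both lists. SMARCC1 had LNCaP folds of 5.28, 5.04, 4.41 and 4.46 and PC3 folds of 5.01 and 6.71, where the 2 PC3 peaks were 52234 and 34649 bp long. SMARCC2 had LNCaP folds of 3.59, 7.09, 6.49, 4.16, 8.37 and 7.68 and PC3 folds of 3.16, 4.95 and 4.89. For both, LNCaP had the larger number of peaks, 4 against 2 and 6 against 3. The covered share of the span was 14.0% in LNCaP and 44.2% in PC3 for SMARCC1, and 38.7% and 26.6% for SMARCC2. The SMARCC2 shares leave out the 27699 bp peak that runs past the gene and has identical bounds in both lines. Its bounds take in nearly the whole gene and all the SMARCC2 peaks given here. The difference in covered share between the lines on SMARCC2 therefore holds only for peaks whole within the span.

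SRCAP, the ATPase that deposits the variant H2A.Z, had 1 peak in each line at overlapping places, where LNCaP had a fold of 7.49 and PC3 one of 6.36. SMARCA2, the BRM ATPase that can replace SMARCA4, had LNCaP folds of 3.69 and 10.3 and 0 PC3 peaks. ATRX, a remodeler that deposits H3.3, had 2 LNCaP peaks of 51 bp with folds of 3.67 and 5.1. INO80 had 2 PC3 peaks near the end of the gene with folds of 3.93 and 4.27.

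The acetyltransferases KAT6A and KAT6B had 7 peaks in PC3 and 1 in LNCaP. KAT6A, which acetylates histone H3, had a LNCaP peak of 551 bp (fold 6.52) that lay inside a PC3 peak of 901 bp (fold 9.23) at 96.0% of the span. It had 2 further PC3 peaks with folds of 7.7 and 8.49. KAT6B, its paralog, had 4 PC3 peaks with folds of 7.02, 4.0, 9.68 and 12.1. The peak with a fold of 9.68 (chromosome 10, 75020745 to 75029917) ranked 5 of 1033 by p in the authors' deposited PC3 list, the lowest p of the set. The fold of 4.0 belonged to a 22096 bp peak on the opposite strand that overlapped it. TRRAP, the scaffold of acetyltransferase complexes, had a LNCaP peak with a fold of 8.17.

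Of 3 class IIa deacetylases, HDAC4 alone carried a peak. It spanned 161724 bp in LNCaP, 45.8% of the gene and the longest of the set, with a fold of 12.7 and a p of 8.43e-07 (chromosome 2, 239191051 to 239352774). The annotated spans of the noncoding genes HDAC4-AS2, MIR4269 and MIR2467 lie inside it.

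Of the DNA methylation enzymes, DNMT1, the maintenance methyltransferase, had 4 peaks in each line. The LNCaP folds were 8.11, 3.74, 7.19 and 9.44 and the PC3 folds 5.97, 7.08, 9.09 and 8.76, from start to end of the gene. In both lists a peak began at base 10179978 of chromosome 19 and another ended at 10179953. The PC3 peaks covered 73.0% of the span and the LNCaP peaks 41.7%. DNMT3A, a de novo methyltransferase, had a LNCaP peak with a fold of 3.79.

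HCFC1, a cofactor of SET1 and other chromatin complexes, had 3 LNCaP peaks and 8 PC3 peaks. Several of the PC3 peaks were neighbours 25 bp apart, and the covered share of the span was 28.2% in LNCaP and 32.9% in PC3. LNCaP folds were 6.49, 5.18 and 3.98 and PC3 folds ran from 5.66 to 9.69, so that the highest LNCaP fold was below all but 1 of the PC3 folds. In PC3, 5 of the peaks lay side by side between 153953741 and 153955161 on the X chromosome, where LNCaP had 1. ASXL1, a cofactor of the Polycomb deubiquitinase, had 3 PC3 peaks, at 0.215%, 1.02% and 91.5% of its span, with folds of 5.87, 4.37 and 9.82.

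The 13 genes with peaks in both lists are ARID1A, BAZ2A, BPTF, BRD3, DNMT1, HCFC1, KAT6A, NSD2, SETD5, SMARCA4, SMARCC1, SMARCC2 and SRCAP. They make up 43.3% of the LNCaP genes of the set and 68.4% of its PC3 genes. Among other protein-coding genes, 20.0% of those with a LNCaP peak and 63.0% of those with a PC3 peak were in both lists. The 13 genes carried 47 peaks in each list. PC3 had more peaks on 4, LNCaP on 5, and the numbers were equal on 4. All 13 had at least 1 place where peaks of both lines overlapped by at least 1 bp on the same strand.

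**Figure D3:**
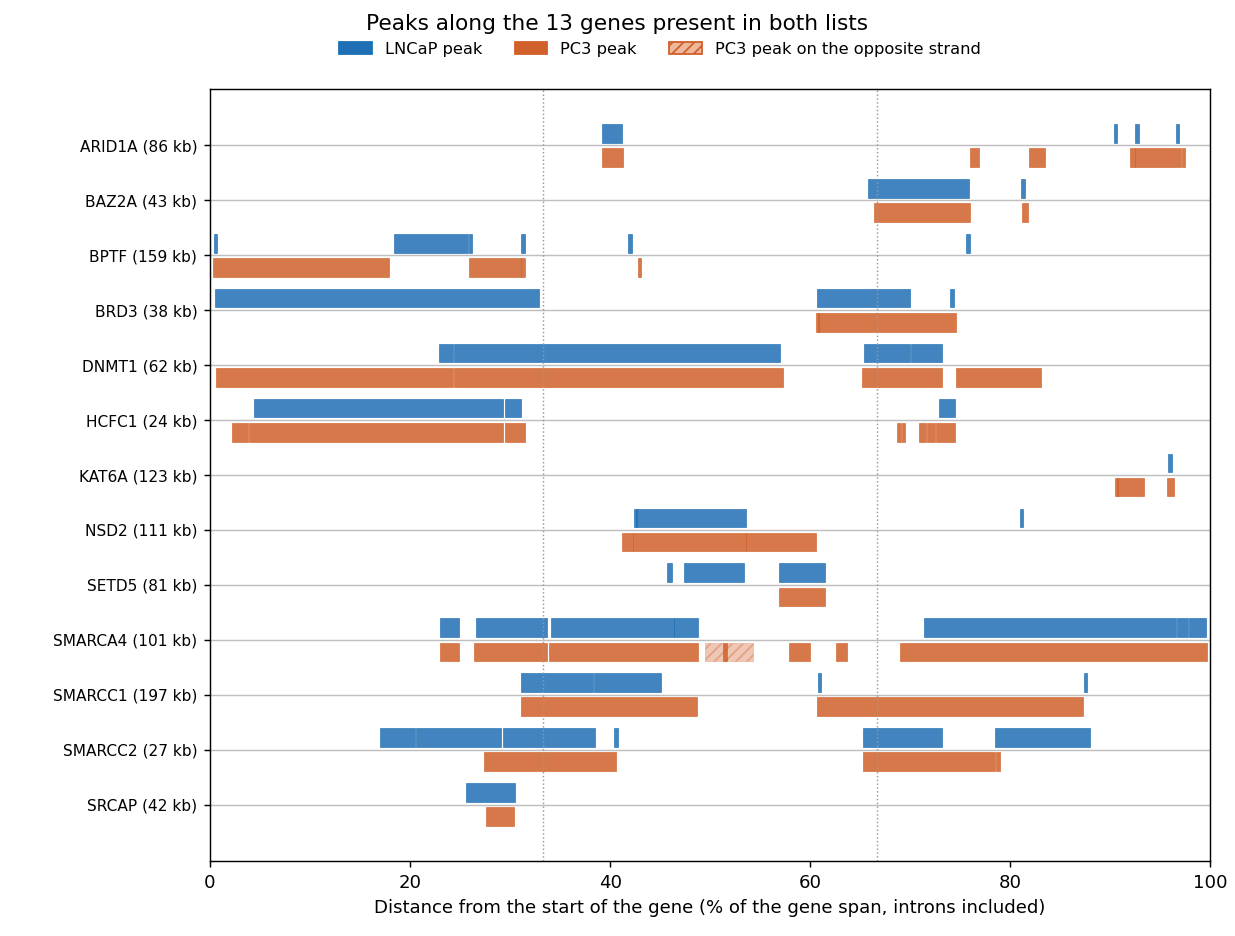
Peaks along the 13 genes present in both lists, with the distance from the start of the gene as a percent of its span on the horizontal axis; blue bars are LNCaP peaks, orange bars PC3 peaks, the hatched bar a PC3 peak on the opposite strand, dotted lines the bounds between its 3 equal parts, and very short peaks are widened to stay visible. LNCaP and PC3 peaks overlap on each of the 13 genes, and on DNMT1 the bars cover 41.7% of the span in LNCaP and 73.0% in PC3.

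Overlap was counted for single peaks too. Of the 60 PC3 peaks, 27 overlapped a LNCaP peak (45.0%), and of PC3 peaks on other protein-coding genes 44.2% did. Of the 91 LNCaP peaks, 37 overlapped a PC3 peak (40.7%), and on other genes 20.8% did. Peaks of 1 gene are not independent, and the 37 lie on 13 genes, with 7 on SMARCA4 and 6 on SMARCC2, so these shares are descriptions and their difference was not tested. The 27 PC3 peaks formed 38 pairs with 36 LNCaP peaks of the set. The higher fold was in PC3 in 20 pairs and in LNCaP in 18, and the ratio of PC3 to LNCaP fold ran from 0.351 on BRD3 to 2.62 on SMARCA4, with a median of 1.07. The listed p was lower in PC3 in all 38. The PC3 list stops at a p of 1.59e-05, so pairs with a LNCaP p above that bound could only come out this way. Most of the 38 are such pairs, so this order says nothing about the lines. Folds and p-values were made separately for each list, so these orders were not tested.

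Along the genes, 35 of 91 LNCaP peaks lay in the last of 3 equal parts of the span (38.5%), as did 31 of 60 PC3 peaks (51.7%). On other protein-coding genes the shares were 46.9% in LNCaP and 58.4% in PC3. In the first part lay 19.8% in LNCaP and 21.7% in PC3, against 19.4% and 12.8% on other genes. The 13 PC3 peaks there were on 7 genes, HCFC1, BPTF, ASXL1, SMARCA4, DNMT1, SETD1A and SRCAP. On the 13 genes of both lists the share in the last part was 38.3% in LNCaP and 46.8% in PC3.

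The strength of the peaks was read against their own list. The median fold was 5.68 in LNCaP (exact binomial interval of the median 5.1 to 6.52, 91 peaks) and 6.8 in PC3 (5.66 to 8.18, 60 peaks). These intervals treat peaks as independent, though they lie on 30 and 19 genes, so they may be too narrow. Over all peaks the median fold was 5.26 and 5.74. In LNCaP 58.2% of the peaks of the set lay above the median fold of their list, and in PC3 63.3%. The median p was 0.0013 in LNCaP and 3.07e-09 in PC3, against 0.00137 and 6.37e-09 over all peaks, and 50.5% and 51.7% of the peaks of the set lay at or under the median p of their list. Median spans were 1197 bp in LNCaP and 1848 bp in PC3. Peaks of 51 bp, the shortest of the set in both lists, made up 12.1% and 8.33% of its peaks, against 12.5% and 10.5% of all peaks.

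**Figure D4:**
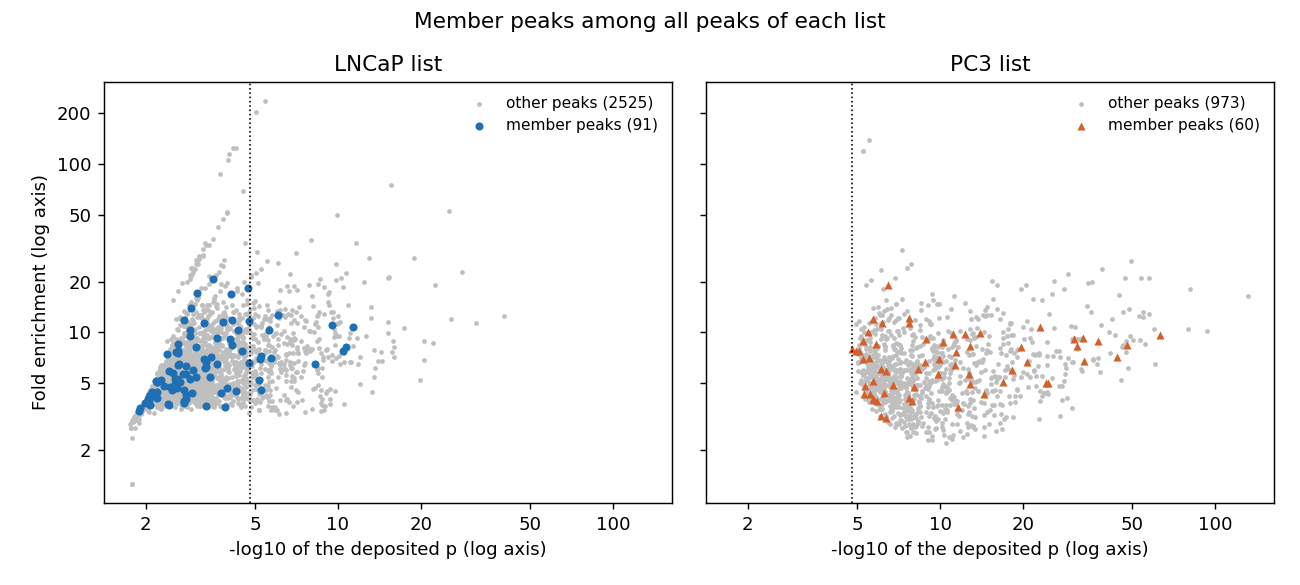
Fold enrichment (log axis) against the negative log10 of the deposited p (log axis) for all peaks of each list, with the peaks of the 51 chromatin genes in colour (91 in LNCaP, 60 in PC3) and other peaks in grey; the dotted line marks 1.59e-05, where the PC3 list stops. Most LNCaP peaks of the set lie to the left of the line, and 12 lie to its right or on it.

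How many genes each line had depended on the p-values admitted to its list. With LNCaP held to the bound of 1.59e-05 as well, 12 of its peaks on 8 genes were left (15.7% of the 51), while 1.33% of all protein-coding genes kept a LNCaP peak. These 8 were ARID1A, BAZ2A, BPTF, DNMT1, HDAC4, SETD5, SMARCA4 and SMARCC2, and 7 of them also carried a PC3 peak. HDAC4 was the exception. Of the 17 genes in LNCaP alone, 16 had no peak at or under that p, and the PC3 list holds no peak with a p as large as theirs. With the LNCaP list shortened to its 1033 peaks of lowest p, the length of the PC3 list, 21 genes were left (41.2%, against 2.81% of all protein-coding genes), with 19 in PC3 and 11 in both. That alternative was chosen after the data had been seen. The matching overlaps with PC3 over all protein-coding genes are not given here. The 7 and the 11 genes are therefore counts alone and were not tested.

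Other chromatin regulators were read from a list of 124 genes that holds none of the 51. It also lacks the KMT2 methyltransferases, EP300, CREBBP, the CHD remodelers and EP400, so its shares do not stand for all other chromatin regulators. Of these, 22 carried a LNCaP peak (17.7%), 9 a PC3 peak (7.26%) and 7 both, while their own like-length genes carried one in 7.31% and 2.46%. BAZ1B, the WSTF subunit of ISWI remodelers, had 9 LNCaP and 4 PC3 peaks, with highest folds of 9.16 and 3.8. SIN3A, a scaffold of histone deacetylase complexes, had 1 and 2, with highest folds of 12.3 and 12.4. NCOR1, RERE and CHAF1A also had peaks in both lists.

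Markers of the lines were read as a check of the labels. FOLH1, a LNCaP marker, carried a LNCaP peak with a p of 2.10e-09 in the authors' list and none in PC3. Since 1.83% of all protein-coding genes carried a PC3 peak, the absence of FOLH1 from that list is a weak check. TMPRSS2 also carried a LNCaP peak, but its p of 1.21e-02 lies above the bound where the PC3 list stops, so its absence there checks nothing. KLK3, KLK2 and HOXB13, and the PC3 markers VIM, CD44, AXL, CAV1 and KRT7, had a peak in neither list. A peak list is no measure of expression, so a marker without a peak says nothing about its RNA level.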

How the data were processed

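METTL3 IP and input RNA of LNCaP and PC3 cells was made into stranded mRNA libraries, as the labels' protocols state. The submitters' processing notes name fastp, STAR 2.5.3a, bedtools, deepTools and hg38, with no roles. The peak caller, annotation, filters and use of the 2 replicates are not given in the sources used here. The authors deposited 1 peak list per line, giving each peak a score, a linear fold (a ratio) and a p-value with its FDR, per the file headers. The score was not used.

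Genes and spans came from RefSeq (GRCh38.p14). A peak was assigned to every protein-coding gene that held it whole. Position is the peak's midpoint along the span in the direction of the gene, or of the peak where the gene's strand was not given. Shares of genes have 95% Wilson intervals. Overlap needed 1 bp on the same strand. The assignment was tested on simulated data.

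The 51 genes and all lists were chosen with earlier results of these data known. The rule named genes in both lists, the 5 with the largest folds or most peaks, and genes without a peak; other genes with a peak were added after their values were seen. Alternatives varied p, fold, assignment, strand, joining of peaks, overlap and like length. Depth is unknown. Python 3.11.15, pandas 2.3.3 and scipy 1.17.1 were used. Some genes of the lists of other regulators and markers are not reported here.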

Additional observations from a re-analysis of the deposited data

How the results depend on the processing

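No paired analysis was possible because the lists hold no values per replicate. Fits without each replicate were not run either. Depth is unknown, so its effect on the number of peaks cannot be given. Of 60 alternative values over 11 results, 51 stayed within 1.5 times the count, or within the 95% interval of a share or median, and 9 moved. For like-length genes the value is a mean of shares over the genes of the set. Its interval was made as for 1 share of 692 genes, their median number, so it is only a rough bound. The limit to peaks within exactly 1 protein-coding gene could change nothing in either list, as 0 peaks of the set lay in 2 or more. Nor could the limit to the strand of the gene in LNCaP, where 0 peaks were known to lie on the opposite strand. In 5 more of the 51, the largest PC3 p was applied to the PC3 list itself and could change nothing. Applied to LNCaP, it left 8 genes, 12 peaks, a median fold of 7.44, 16.7% of peaks in the last of 3 equal parts of the span and 2.14% of like-length genes with a peak, and the share of PC3 peaks that overlapped a LNCaP peak became 13.3%. The LNCaP list shortened to the length of the PC3 list left 37 peaks of the set and 4.49% of like-length genes. It left 21 of the 30 genes, which counted as within 1.5 times. As a share of the set, 41.2%, this lies below the interval of 45.2 to 71.2%. With 50% of both peaks required, 30% of PC3 peaks overlapped. The fewer LNCaP peaks admitted account for the lower counts by construction; the cause was not tested for the fold and the position. Joining peaks within 25 bp took SMARCC2 out of both lists, leaving 29 and 18 genes, as the joined peak ran past its span.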
